A study of Mus musculus with 8 samples.

Results

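The histone demethylase LSD1, encoded by Kdm1a, was followed here with its paralog Kdm1b and 7 genes of the CoREST core complex that LSD1 works in. These 9 genes were chosen by name, and all 9 were found among the 23372 genes of the deposited count table. Brown adipose tissue RNA of 8 mice was sequenced. The 4 KO libraries (512, 513, 515 and 516) came from mice with floxed Lsd1 alleles and a Cre recombinase driven from the promoter of Ucp1, a gene of brown fat cells, so that other cells of the tissue keep Lsd1. The 4 control libraries (511, 514, 517 and 518) came from mice described as Lsd1 floxed. All mice were 10 weeks old and had a C57BL/6 N background. The presence of Cre and the loss of Lsd1 went together in this design and cannot be told apart. The labels do not say how the mice are related or when they were handled, so each p-value rests on the spread among these 4 and 4 libraries.

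LSD1 is a flavin-dependent amine oxidase that removes methyl groups from lysine 4 of histone H3, a mark of active promoters and enhancers. It acts on nucleosomes together with a CoREST scaffold protein, and the same complex carries the histone deacetylases HDAC1 and HDAC2, so that a gene can lose methyl and acetyl marks together. PHF21A, also called BHC80, is a subunit that reads histone H3 with an unmethylated lysine 4, and HMG20B, also called BRAF35, is a subunit with a DNA-binding HMG box. In brown fat, LSD1 is known as a partner of the transcription factors PRDM16 and ZFP516.

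The 4 members that passed the test below, Kdm1a, Kdm1b, Hmg20b and Hdac2, are shown first by the sequence around their start sites. Each line runs from 250 bases before the start site to the first 30 bases from it, read 5′ to 3′ on the strand of the gene, from RefSeq (GRCm38.p6, the same chromosome sequences as mm10). Capitals mark matches on either strand to 3 motifs: the core bound by the factor NRF1 (GCGC and TGCGC with any base between them), CCAAT, and the GC box GGGCGG. The places are chr4:136602694-136602973 on the minus strand for Kdm1a, chr13:47043249-47043528 on the plus strand for Kdm1b, chr10:81350398-81350677 on the minus strand for Hmg20b and chr10:36974294-36974573 on the plus strand for Hdac2.
Kdm1a: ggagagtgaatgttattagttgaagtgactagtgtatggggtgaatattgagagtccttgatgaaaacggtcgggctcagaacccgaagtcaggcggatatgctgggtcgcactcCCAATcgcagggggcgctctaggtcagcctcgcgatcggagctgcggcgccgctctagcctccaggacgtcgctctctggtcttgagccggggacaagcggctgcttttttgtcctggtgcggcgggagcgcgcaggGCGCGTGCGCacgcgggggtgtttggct
Kdm1b: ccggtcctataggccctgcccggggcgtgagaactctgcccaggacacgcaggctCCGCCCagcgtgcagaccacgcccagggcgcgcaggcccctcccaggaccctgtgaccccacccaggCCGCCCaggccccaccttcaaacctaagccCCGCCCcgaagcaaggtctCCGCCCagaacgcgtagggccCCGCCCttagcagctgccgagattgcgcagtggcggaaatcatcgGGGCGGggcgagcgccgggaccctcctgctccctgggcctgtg
Hmg20b: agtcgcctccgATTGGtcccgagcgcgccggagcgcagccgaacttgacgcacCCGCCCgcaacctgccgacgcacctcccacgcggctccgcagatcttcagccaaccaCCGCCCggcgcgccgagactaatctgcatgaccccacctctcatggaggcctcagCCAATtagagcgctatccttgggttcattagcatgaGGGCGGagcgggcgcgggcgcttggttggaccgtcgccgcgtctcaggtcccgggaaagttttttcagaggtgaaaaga
Hdac2: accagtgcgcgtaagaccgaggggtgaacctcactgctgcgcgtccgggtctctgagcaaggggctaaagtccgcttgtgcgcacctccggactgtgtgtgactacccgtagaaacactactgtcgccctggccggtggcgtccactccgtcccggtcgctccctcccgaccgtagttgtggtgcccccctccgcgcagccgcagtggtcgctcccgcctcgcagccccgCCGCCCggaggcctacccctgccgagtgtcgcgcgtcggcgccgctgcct

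The full RefSeq windows of 300 bases were searched, and no match lay beyond the printed bases or overlapped another motif. Kdm1a had 1 NRF1 match, starting 2 bases after the start site, 1 CCAAT match and no GC box. Kdm1b had 6 GC boxes and neither of the other motifs. Hmg20b had 2 CCAAT matches and 3 GC boxes, and Hdac2 had 1 GC box. The 4 promoters therefore shared no motif of the 3. Of all 32851 windows in the table, 4.60% held the NRF1 core, 37.4% a CCAAT and 35.7% a GC box. The 4 windows were rich in CpG, with 29 CpG in Kdm1a, 26 in Kdm1b, 34 in Hmg20b and 36 in Hdac2, against a median of 7 over all windows. Members that were not called had 31 CpG in Rcor1, 21 in Rcor2, 47 in Rcor3, and 31 and 1 in the windows of Phf21a. Their GC boxes numbered 6 in Rcor1, 1 in Rcor2, 7 in Rcor3, and 3 and 0 in Phf21a, so neither trait is particular to the called genes. Not all of these start sites are those of the counted transcripts. They lay 431 bases from the counted start in Rcor1, 2370 in Rcor2 and 253 in Rcor3. In Phf21a they lay 36079 and 90 bases from it, in the order given. A window was found for 8 of the 9 genes, the exception being Hdac1.

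The libraries held 33011022 to 34794834 counts in KO and 33560583 to 38756920 in control. KO tissue had 2195 higher and 2682 lower genes among the 14186 that could be tested (edgeR adjusted p under 0.05), which is 34.4% in all, with 18.9% called lower. That split was 2924 higher and 1624 lower with upper quartile factors, and 4080 higher and 927 lower with library sizes alone. For 35.5% of the tested genes, all libraries of one group lay above all libraries of the other. Among the 9 members 4 were called, all lower, and 0 higher. Those 4 genes were also the ones without overlap between the groups. The 4 include the deleted gene Kdm1a, which had to differ. Counts among only 9 genes are too small to set against the 34.4%, 18.9% and 35.5% over all genes. They alone are no result about these members. The median log2 fold change of the 9 members was -0.22, against -0.01 over all genes tested. That median is the value of Hdac1, whose confidence interval runs from -1.57 to 1.13. It therefore shows no shared fall of the 9 members. Levels are given as CPM, library-scaled counts using TMM factors (a trimmed mean of ratios between libraries), with the SD over 4 libraries. Log2 fold changes set KO over control, and their standard error (SE) is an approximation.

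**Figure D1:**
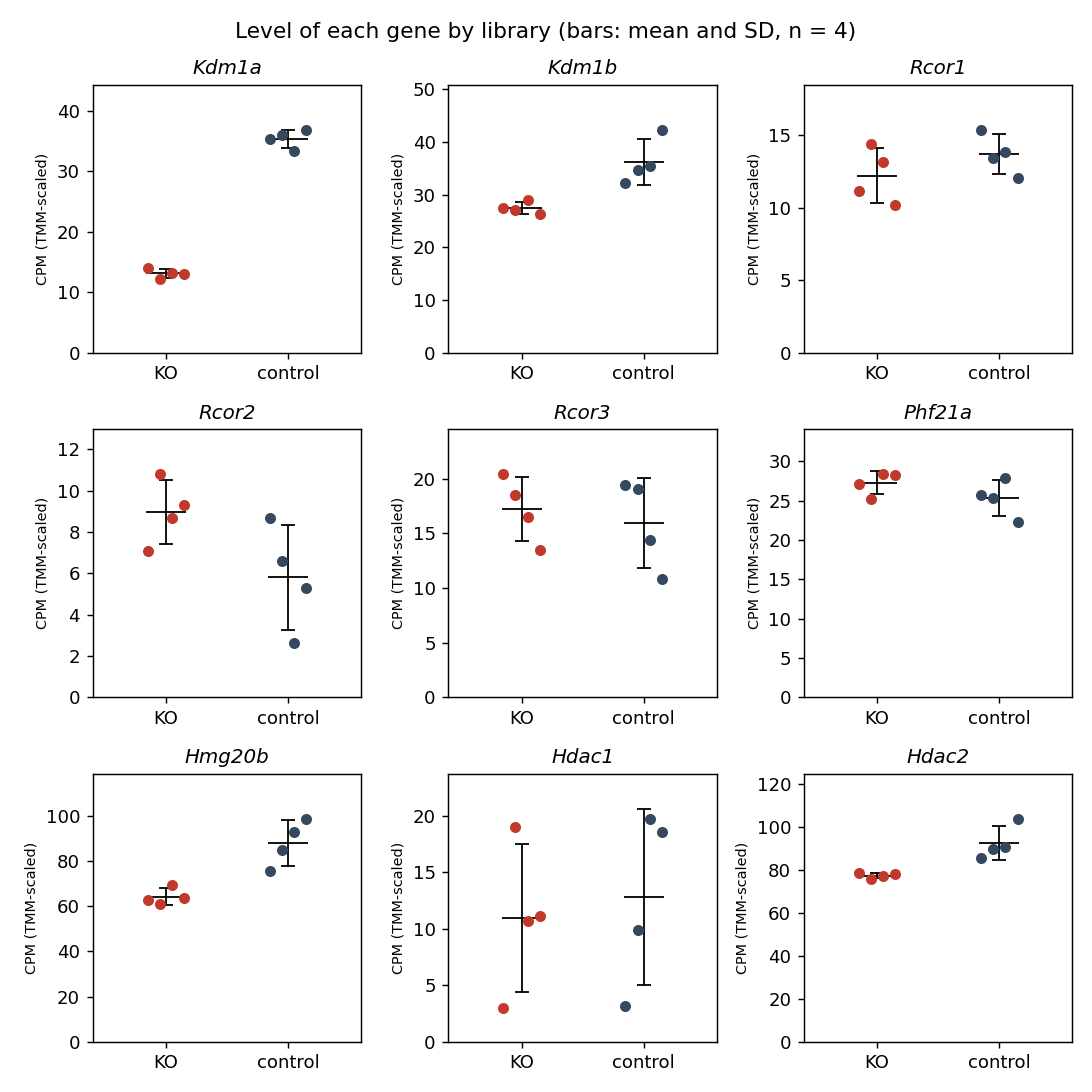
Level of the 9 genes in CPM (vertical axes, each starting at 0) in the 4 KO and the 4 control libraries; points are libraries, bars the mean and SD. The groups do not overlap for Kdm1a, Kdm1b, Hmg20b and Hdac2, and they overlap for the other 5 genes.

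Kdm1a (chromosome 4, 136550533 to 136602723, minus strand, mm10) is the gene that was deleted, and its level checks the labels. It had 14.0, 12.2, 13.2 and 13.0 CPM in KO 512, 513, 515 and 516, against 35.3, 36.0, 33.3 and 36.9 CPM in control 511, 514, 517 and 518. Every KO library lay below every control library, and within each group the libraries were close, with a coefficient of variation of 5.41% in KO and 4.24% in control. On the log2 scale this gave -1.43 with an SE of 0.0741 (edgeR adjusted p = 2.65e-05), a larger difference than for any other of the 9 genes. The KO libraries kept 34.6% to 39.5% of the control mean, and the fitted remainder was 37.1% with a 95% interval of 33.0% to 41.6%. Reads on any exon entered these counts, and transcripts that lack the floxed part were counted like full ones. In whole tissue, fewer cells of a type and less RNA per cell cannot be told apart, here and for every gene below.

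Kdm1b (chromosome 13, 47043499 to 47085279, plus strand) encodes LSD2, the paralog that removes the same methyl groups but does not join CoREST, and that is known in mouse oocytes for its part in setting up imprints. It had 27.5, 27.0, 29.1 and 26.3 CPM in KO 512, 513, 515 and 516, against 32.2, 34.8, 35.5 and 42.4 CPM in control 511, 514, 517 and 518. The highest KO library was below the lowest control library, and control 518 was the highest of all. Kdm1b fell by 0.40 (SE 0.0913, edgeR adjusted p = 0.00996), which is a fall by 24.2% with a 95% interval of -34.3% to -12.6%. In the GENCODE annotation 9.19% of its exon bases lie opposite Dek, a chromatin protein gene that the counting without strand could not keep apart. Dek itself averaged 46.8 ± 2.18 CPM in KO and 35.1 ± 2.60 CPM in control (SD, n = 4 each), a log2 fold change of 0.42 (edgeR adjusted p = 0.00312).

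Sums and ratios that hold Kdm1a restate its deletion in part, and they are given as descriptions. Per kilobase of transcript, Kdm1a and Kdm1b together came to 9.96 ± 0.378 CPM per kilobase in KO and 19.2 ± 1.22 in control (SD, n = 4 each), with 9.57 to 10.3 against 18.4 to 21.0 over the libraries and no overlap. Kdm1a made up 42.9% to 45.8% of that sum in KO libraries and 59.1% to 64.5% in control libraries. A ratio taken within a library does not depend on the scaling between libraries. The ratio of Kdm1b to Kdm1a, from counts divided by transcript length, was 1.18, 1.33, 1.32 and 1.21 in KO 512, 513, 515 and 516, against 0.549, 0.582, 0.641 and 0.692 in control 511, 514, 517 and 518. Kdm1b was thus the more abundant of the pair in every KO library and the less abundant in every control library. The log2 ratio was 1.04 higher in KO.

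The CoREST scaffolds are encoded by 3 genes, and none of them was called. Rcor1 (chromosome 12, 111039798 to 111113386, plus strand) encodes CoREST1, the scaffold first described as a corepressor of the neuronal silencer REST. It had 11.1, 14.4, 13.2 and 10.2 CPM in KO 512, 513, 515 and 516, against 15.4, 13.4, 13.9 and 12.1 CPM in control 511, 514, 517 and 518. The groups overlapped, with a log2 fold change of -0.16 (SE 0.131, 95% interval -0.46 to 0.13, edgeR adjusted p = 0.364).

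Rcor2 (chromosome 19, 7269764 to 7275225, plus strand), a scaffold known from embryonic stem cells and the developing brain, had the lowest mean per kilobase of the 3 scaffolds in control. It had 7.10, 10.8, 8.67 and 9.31 CPM in KO 512, 513, 515 and 516, against 8.69, 6.58, 2.64 and 5.28 CPM in control 511, 514, 517 and 518. The control libraries spread widely and control 511 lay inside the KO range. The log2 fold change was 0.63 (SE 0.305, 95% interval -0.06 to 1.31, edgeR adjusted p = 0.140), so Rcor2 was not called. Without control 511 it was called, at 0.88 (edgeR adjusted p = 0.0473), and without control 517 it was at 0.39 (0.182).

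Rcor3 (chromosome 1, 192100462 to 192137787, minus strand) encodes a scaffold that was described in mouse blood cells to hold back LSD1 activity. It had 20.4, 18.5, 16.5 and 13.5 CPM in KO 512, 513, 515 and 516, against 19.4, 19.1, 14.4 and 10.8 CPM in control 511, 514, 517 and 518. The groups overlapped over most of their range, with a log2 fold change of 0.11 (SE 0.201, 95% interval -0.34 to 0.57, edgeR adjusted p = 0.692). In the annotation 8.34% of its 13622 exon bases lie opposite noncoding gene models, while the counted row has 1573 bases.

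The scaffolds were also set against each other within each library. The ratio of Rcor2 to Rcor1, per transcript length, was 0.865, 1.02, 0.894 and 1.24 in KO 512, 513, 515 and 516, against 0.764, 0.664, 0.258 and 0.595 in control 511, 514, 517 and 518. All KO libraries were above all control libraries, and the log2 difference was 0.91 (exact permutation test, two-sided, p = 0.0286, the smallest that 4 against 4 libraries can give). Adjusted over the 3 ratios without Kdm1a this did not pass (exact permutation adjusted p = 0.0857). Over all 5 ratios the adjusted exact permutation p was 0.0476, but 2 of the 5 hold the deleted gene and had to differ. Control 517 had by far the lowest ratio, and without it the difference was 0.57. With 3 libraries left in a group the smallest p is 0.0571, so no ratio can pass with a library left out. The ratio of Rcor3 to Rcor1 was 2.15 to 3.14 in KO and 1.53 to 2.44 in control, with overlap and a log2 difference of 0.31 (exact permutation p = 0.229, adjusted over 3 ratios p = 0.343). Rcor3 held 50.3% to 62.8% of the summed scaffold RNA per kilobase in KO and 49.0% to 59.4% in control, the largest share in every library. The scaffold sum itself was 20.0 ± 2.29 CPM per kilobase in KO and 18.1 ± 3.97 in control (SD, n = 4 each).

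Rcor1 was also set against the demethylase it binds. The ratio of Rcor1 to Kdm1a was 0.880, 1.29, 1.10 and 0.863 in KO 512, 513, 515 and 516, against 0.481, 0.412, 0.459 and 0.361 in control 511, 514, 517 and 518. The groups did not overlap, and the log2 ratio was 1.26 higher in KO, which restates the log2 fold changes of -1.43 for Kdm1a and -0.16 for Rcor1. The plot of ratios shows these values beside the 2 ratios that overlapped.

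**Figure D2:**
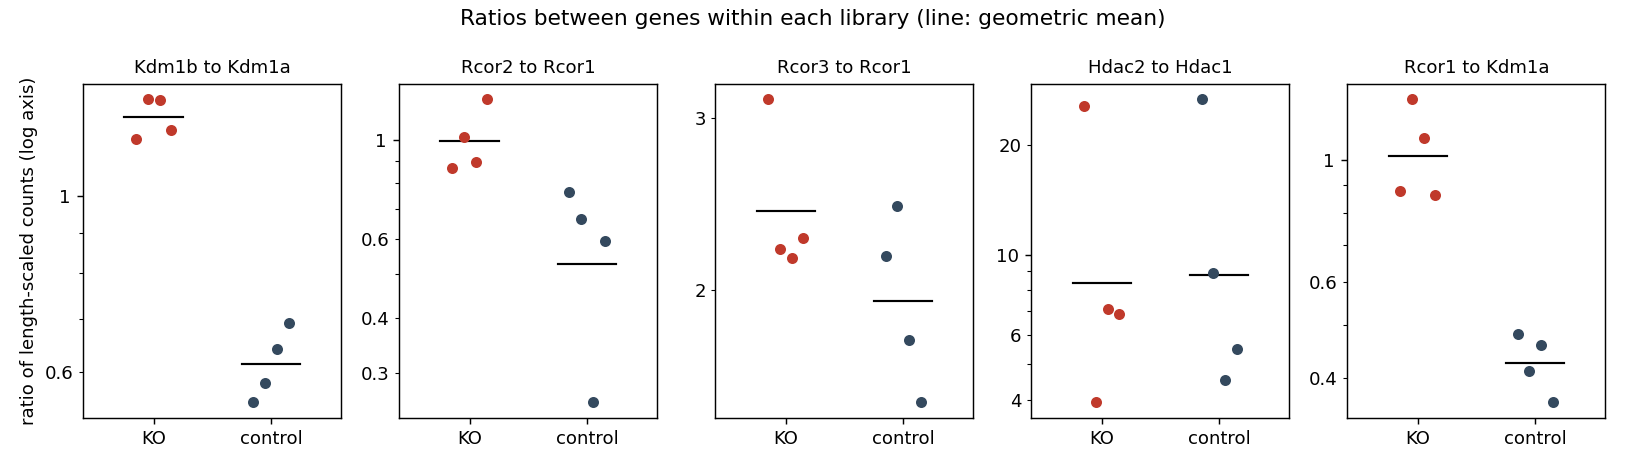
Ratio of length-scaled counts of 5 gene pairs (vertical axes, logarithmic) in the KO and the control libraries; points are libraries and lines geometric means. Kdm1b to Kdm1a, Rcor2 to Rcor1 and Rcor1 to Kdm1a are higher in all 4 KO libraries than in any control library, while Rcor3 to Rcor1 and Hdac2 to Hdac1 overlap.

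Among the subunits that read DNA or histones, Hmg20b (chromosome 10, 81346046 to 81350427, minus strand) was lower in KO. It had 62.9, 60.8, 69.5 and 63.8 CPM in KO 512, 513, 515 and 516, against 75.6, 84.8, 92.8 and 98.8 CPM in control 511, 514, 517 and 518. The groups did not overlap, and the control libraries spread more than the KO libraries. Hmg20b fell by 0.45 (SE 0.0906, edgeR adjusted p = 0.00545), which is a fall by 27.0% with a 95% interval of -36.6% to -15.9%. This was the second smallest adjusted p among the 9 genes after that of Kdm1a.

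Phf21a (chromosome 2, 92221562 to 92364666, plus strand), the reader of unmethylated lysine 4, had 27.1, 25.2, 28.4 and 28.3 CPM in KO 512, 513, 515 and 516, against 25.8, 25.3, 27.9 and 22.3 CPM in control 511, 514, 517 and 518. The values overlapped, and the log2 fold change was 0.11 (SE 0.0856, 95% interval -0.08 to 0.30, edgeR adjusted p = 0.353). With library sizes alone it was 0.31 and called (edgeR adjusted p = 0.0184).

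The deacetylases gave a precise and a noisy measurement. Hdac2 (chromosome 10, 36974544 to 37001888, plus strand) had 78.5, 76.1, 77.0 and 78.2 CPM in KO 512, 513, 515 and 516, against 85.6, 89.7, 90.9 and 104.1 CPM in control 511, 514, 517 and 518. The KO libraries lay within a narrow band, with a coefficient of variation of 1.43% against 8.64% in control, and below all control libraries. Hdac2 fell by 0.26 (SE 0.0708, edgeR adjusted p = 0.0217), the smallest of the 4 called changes, a fall by 16.3% with a 95% interval of -25.1% to -6.55%. The call ended without KO 513, KO 515 or KO 516 (edgeR adjusted p = 0.0615, 0.0556 and 0.0503).

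Hdac1 (chromosome 4, 129516104 to 129542646, minus strand) had 3.01, 19.0, 10.7 and 11.2 CPM in KO 512, 513, 515 and 516, against 3.12, 9.90, 19.8 and 18.5 CPM in control 511, 514, 517 and 518. KO 512 and control 511 stood at about the same low level, and the other 6 libraries were between 9.90 and 19.8 CPM. The log2 fold change was -0.22 (SE 0.598, 95% interval -1.57 to 1.13, edgeR adjusted p = 0.799), and that interval holds falls and rises of more than 2-fold. Without control 511 and KO 512 together it was -0.24 (0.599). Of the 50-base words in the GENCODE Hdac1 transcript, 58.7% also occur in transcripts of other genes, most of them in the processed pseudogene Gm10093, so reads of Hdac1 and of its copies could not be fully kept apart. For Kdm1a, Rcor2, Phf21a, Hmg20b and Hdac2 that share was 0%. The ratio of Hdac2 to Hdac1 was 25.7 in KO 512 and 3.93 to 7.09 in the other KO libraries, against 26.8 in control 511 and 4.52 to 8.89 in the other control libraries. The log2 difference of the groups was -0.07 (exact permutation test, two-sided, p = 0.914, adjusted over 3 ratios p = 0.914).

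**Figure D3:**
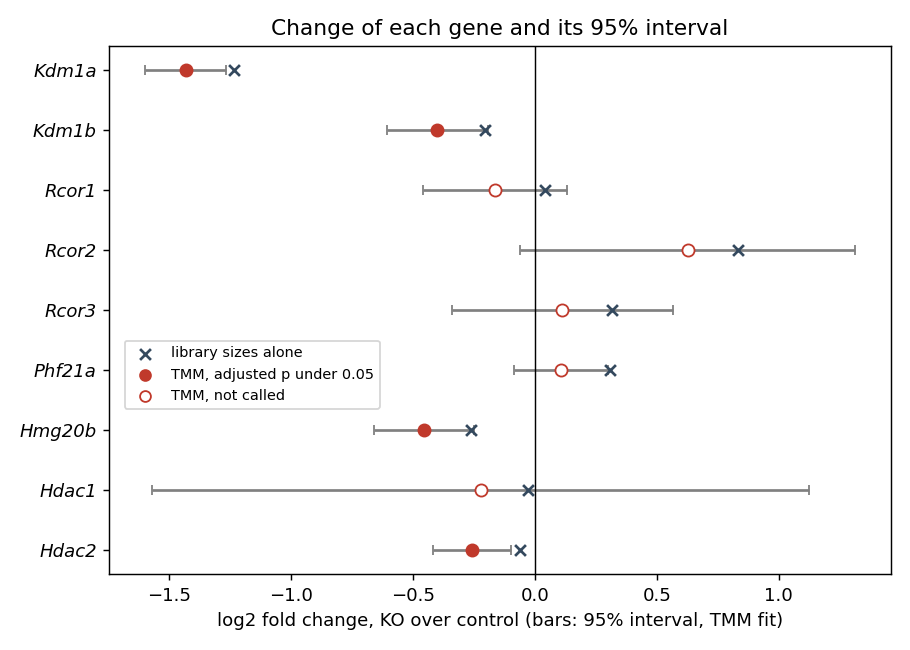
Log2 fold change of the 9 genes, KO over control (horizontal axis), with 95% intervals as bars; filled points passed an adjusted p of 0.05 with TMM scaling and crosses show the fit with library sizes alone. Kdm1a lies at -1.43, far from the other 8 genes, and the interval of Hdac1 spans -1.57 to 1.13.

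The size of the smaller falls rested on the scaling between libraries. TMM factors were 1.05 to 1.10 in KO and 0.898 to 0.960 in control. With library sizes alone the median of all genes shifted to 0.19 and Kdm1a was still called, at -1.23 (edgeR adjusted p = 2.49e-05), whereas Kdm1b was at -0.20 (0.150), Hmg20b at -0.26 (0.0740) and Hdac2 at -0.06 (0.588). With upper quartile factors Hdac2 was at -0.15 (0.112) and the calls of Kdm1a, Kdm1b and Hmg20b held. In the authors' deposited table the fold of KO over control was 0.366 for Kdm1a (FDR 2.80e-23), 0.722 for Hmg20b (0.00574), 0.750 for Kdm1b (0.0197) and 0.827 for Hdac2 (0.145), so that Hdac2 was not called there.

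Levels of different genes can be set side by side per length only, here as CPM divided by the transcript length in kilobases. In KO libraries Hmg20b (39.9 ± 2.30 CPM per kilobase, SD, n = 4) and Hdac2 (39.2 ± 0.562) came first and overlapped, and Rcor3 followed at 10.9 ± 1.89. Hdac1, Kdm1b, Rcor1, Rcor2, Kdm1a and Phf21a came next with means of 5.65, 5.55, 4.53, 4.50, 4.40 and 4.34, and each of them overlapped its neighbours in the order. In control libraries Hmg20b (54.7 ± 6.25) and Hdac2 (46.9 ± 4.05) also came first and overlapped, and Kdm1a came next at 11.9 ± 0.504, overlapping Rcor3 at 10.1 ± 2.63. Kdm1a thus ranked 8 of 9 in KO and 3 of 9 in control. The order depends on the lengths of the rows kept, 1573 bases for Rcor3 and 6278 for Phf21a being the extremes.

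**Figure D4:**
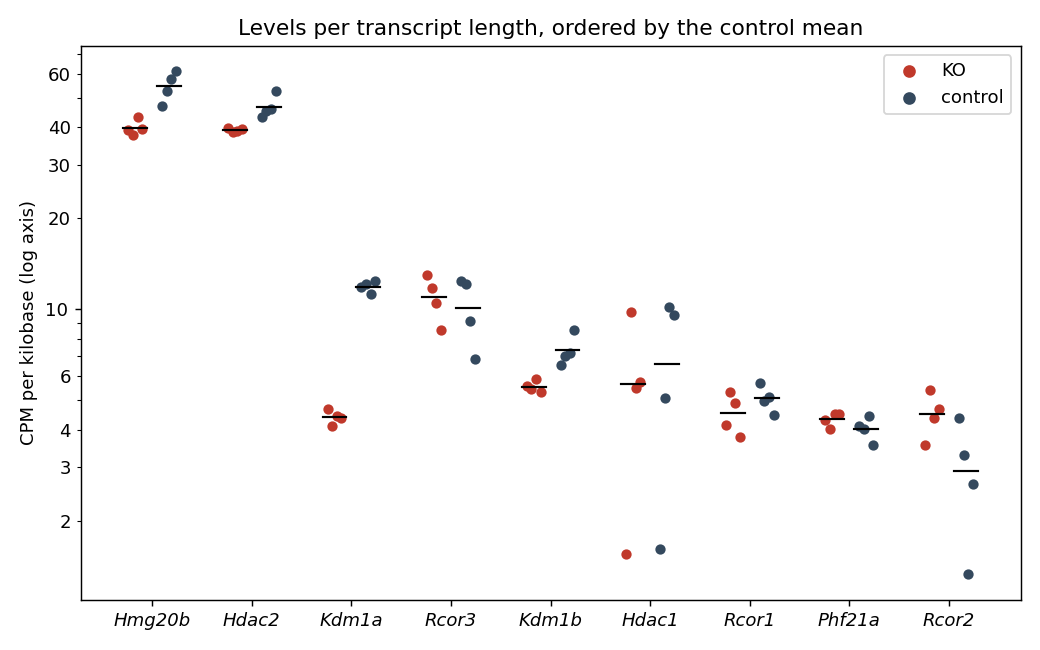
CPM per kilobase of transcript (vertical axis, logarithmic) of the 9 genes, ordered by the control mean; points are libraries, with KO to the left of control for each gene, and lines are means. Hmg20b and Hdac2 stand well above the rest in both groups, and Kdm1a is at 4.40 in KO against 11.9 in control.

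The genes whose levels ran most like those of a member were found by Pearson correlation of log2 CPM over the 8 libraries. The search covered 10353 genes whose mean reached 5 CPM, with uncharacterised gene models (Gm numbers, Rik and LOC names) left out. The correlations are descriptions, since the points share libraries and scaling and fall into the 2 groups. Most like Kdm1a were Mrpl21, a mitochondrial ribosomal protein gene (r = 0.997), Cab39l (0.997) and Tmem14c, which encodes a mitochondrial membrane protein of heme synthesis (0.996). Tmem14c averaged 245 CPM in KO and 386 CPM in control (log2 fold change -0.66, edgeR adjusted p = 0.000195), and its groups did not overlap either. Most like Kdm1b were Nsun5 (0.996), Copb1 (0.994) and Dcaf13 (0.993). Most like Hdac2 was Kbtbd11 (0.997), with 76.7 CPM in KO and 138.7 CPM in control, and Drg1 followed (0.992). Hmg20b ran most like Ppcs, of coenzyme A synthesis (0.991), and Chchd2 (0.989). Phf21a ran most like the matrix genes Lum (0.970) and Col1a2 (0.963), followed by Ddit4 (0.949). For the scaffolds the closest genes were the kinase gene Lats2 for Rcor1 (0.948), Trip6 for Rcor2 (0.977) and Zfp609 for Rcor3 (0.950).

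Hdac1 ran most like Ndufs5, a complex I subunit gene (0.949), and Ccdc28b (0.934). Ndufs5 had 1.64 CPM in KO 512 and 32.5 to 36.8 CPM in the other KO libraries, against 1.83 CPM in control 511 and 49.0 to 89.5 CPM in the other control libraries. Ccdc28b had 8.78 CPM in KO 512 and 21.3 to 32.5 CPM in the other KO libraries, against 8.77 CPM in control 511 and 19.1 to 31.7 CPM in the other control libraries. Both were low in the same pair of libraries as Hdac1. Both also lie on chromosome 4, Ccdc28b 76628 bases and Ndufs5 5797918 bases from Hdac1, and Kdm1a lies on the same chromosome 7007887 bases from it. Zfp235, next in likeness (0.919), lies on chromosome 7.

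**Figure D5:**
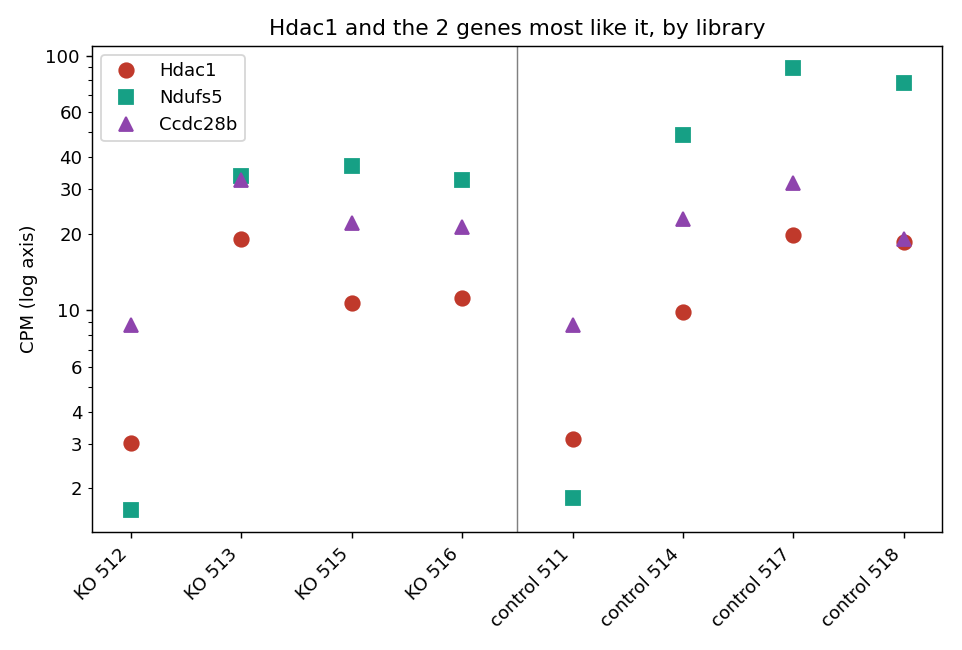
CPM (vertical axis, logarithmic) of Hdac1, Ndufs5 and Ccdc28b in each of the 4 KO libraries, left of the line, and the 4 control libraries, right of it. All 3 genes are lowest in KO 512 and control 511.

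Genes around the core complex are given from lists chosen by their known roles. Over all genes tested 15.5% were called higher and 18.9% lower, and counts in such short lists are no result by themselves. The list genes here and below are given with TMM factors only. With library sizes alone the median of all genes moved to 0.19, so the small changes depend on the scaling. Of 7 further subunits, 0 were higher and 1 was lower in KO, namely Gse1 (log2 fold change -0.42, edgeR adjusted p = 0.0445). Of 11 factors that recruit LSD1, 8 could be tested, of which 2 were higher and 1 lower. Zfp516 averaged 28.7 ± 1.57 CPM in KO and 17.3 ± 3.29 CPM in control (SD, n = 4 each), a rise of 0.73 (edgeR adjusted p = 0.00311), the low-level gene Snai1 rose by 0.65 (0.0357) and Prdm16 fell by 0.82 (0.0275). The groups overlapped for Gse1 and Prdm16. Rest, the neuronal silencer, had a log2 fold change of -0.09 (0.795). Among 15 genes long described as REST targets 7 could be tested, and 2 were higher and 0 lower. These were the low-level sodium channel gene Scn2a1, at 1.27 ± 0.0779 CPM in KO and 0.572 ± 0.0560 CPM in control (log2 fold change 1.15, edgeR adjusted p = 0.00191), and the synaptic vesicle gene Syp (0.33, 0.0238). Unc13a lay on the other side at -0.96 without a call (edgeR adjusted p = 0.0590), and the median of the 7 was 0.17.

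The counts that follow also stand beside 15.5% of all tested genes called higher and 18.9% called lower. Of 11 subunits of NuRD, another complex with these deacetylases, 0 were higher and 1 was lower, Mbd3 (-0.33, edgeR adjusted p = 0.0194). Of 9 other histone deacetylases, 2 were higher, Hdac9 (0.76, 0.0251) and Hdac8 (0.48, 0.0401, with overlapping groups), and 0 lower. Of 9 other enzymes of lysine 4 methylation, 0 were higher and 2 lower. The demethylase Kdm5c averaged 75.4 ± 6.86 CPM in KO and 117.7 ± 17.9 CPM in control (SD, n = 4 each), a fall by 0.64 (edgeR adjusted p = 0.00344), and the methyltransferase Setd1a fell by 0.28 (0.00929). Whether falls as small as those of Setd1a and Mbd3 hold under another scaling was not tested.

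Markers of cell types were read beside these results, with 15.5% of all tested genes called higher and 18.9% lower. The tissue label held, with Ucp1 at 1377 ± 161.6 CPM in KO and 4480 ± 1200.03 CPM in control (SD, n = 4 each). Of 9 brown fat markers 6 were lower and 0 higher, with summed levels of 5063 to 5586 CPM in KO and 8135 to 11236 CPM in control, and of 5 markers of all fat cells 3 were lower and 0 higher, with sums of 9596 to 11117 CPM in KO and 13543 to 18058 CPM in control. The part of these fat cell genes in the members' values was not tested. Of 8 skeletal muscle markers 1 was higher, and their sum was 5330.5 to 11460.4 CPM in KO and 196.4 to 4460.2 CPM in control. With the log of that sum as a covariate the calls stood, Kdm1a at -1.43 (edgeR adjusted p = 0.000232), Kdm1b at -0.46 (0.0266), Hmg20b at -0.49 (0.0200) and Hdac2 at -0.30 (0.0496). That sum was higher in every KO library than in any control library, so muscle content and genotype cannot be told apart by this fit. Of 6 macrophage markers 3 were higher, with sums of 101.4 to 155.1 CPM in KO and 56.5 to 95.7 CPM in control, and their part in the members' values was not tested. Of 7 fibroblast markers 0 were called by edgeR, with sums of 1333 to 2050.3 CPM in KO and 724.4 to 1604 CPM in control. Endothelial markers had 1 higher gene of 5 (sums of 938 to 1096 CPM in KO and 905 to 1051 CPM in control), and Schwann cell markers 1 of 5 (254 to 279 CPM in KO and 201 to 215 CPM in control). Of 5 lymphocyte markers 0 were called by edgeR, with sums of only 2.86 to 5.61 CPM in KO and 3.20 to 14.0 CPM in control, and of 5 smooth muscle markers 0, with 383 to 479 CPM in KO and 337 to 454 CPM in control. Xist was at 0.118 to 0.281 CPM in KO and 0.0390 to 0.308 CPM in control, and the Y-linked Ddx3y at 96.2 to 112 CPM in KO and 112 to 124 CPM in control, so all animals had the male pattern.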

How the data were processed

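The authors' estimated counts were made with HOMER (analyzeRepeats.pl, RefSeq genes, unadjusted counts over exons, both strands), per the file headers, while the submitters' processing notes name TopHat2 (version 2) and the mm10 genome. They are multiples of 0.5 and were rounded to whole numbers. A second table deposited by the authors has library-scaled counts (a signal, not tested), a fold (ratio, KO over control), p-values with FDR, and log2 values. The 829 of 30521 rows without a symbol, at most 0.0824% of a library's counts, were left out, and the row with the highest total stood for a symbol. Genes passing filterByExpr (minimum count 10) went through the quasi-likelihood test of edgeR 4.0.16 (R 4.3.3) with TMM factors, Benjamini-Hochberg adjustment over 14186 genes and a threshold of 0.05. All 9 members passed the filter. The SE is the log2 fold change divided by the square root of F, and intervals use it. Ratios of counts (0.5 added) per length were compared by exact permutation in SciPy 1.17.1, with p-values adjusted over the 5 ratios as planned and over the 3 without Kdm1a. DESeq2 1.42.0 and limma 3.58.1 were alternatives. In simulated KO against control counts (14098 genes tested) edgeR found 4% of the 1.25-fold changes, 40% of the 1.5-fold and 90% of the 2-fold ones, and made 13 wrong calls. Only 50 genes were changed at each fold, far fewer than were called in the real data, so these rates cannot be carried over to it. Replicate pairs differed by more than sampling noise (chi-square over its degrees of freedom at least 13.1). This value was 13.1 to 36.6 between KO libraries and 52.2 to 197.7 between control libraries. Between a KO and a control library it was 94.7 to 188.9, so some control pairs differed as much as pairs across the groups. The members and lists were chosen with earlier results of these data known. Named genes are the 9 members, up to 3 genes of each list by smallest p and the 3 genes most like each member (correlation of log2 of CPM plus 0.5), of which a selection is given, and 2 genes so named are not reported here. Of the list entries 2 were matched by a RefSeq synonym. Xist, Ddx3y, Dek and Rest lie outside that rule and were added after their values were seen.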

Additional observations from a re-analysis of the deposited data

Results flagged for a closer look

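In 2 of 28 sets of 4 libraries a library lay far from the other 3, and chance alone gives about 1 in 20. The ratio of Rcor3 to Rcor1 was 3.14 in KO 512, against 2.15 to 2.26 in the other KO libraries. The ratio of Hdac2 to Hdac1 was 25.7 in KO 512, against 3.93 to 7.09 in the other KO libraries, and control 511 had a like value of 26.8.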

How the results depend on the processing

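Kdm1a was lower and called under every alternative run, at -1.47 to -1.23. With library sizes alone the values were -0.20 for Kdm1b (edgeR adjusted p = 0.150), -0.26 for Hmg20b (0.0740), -0.0616 for Hdac2 (0.588), 0.0405 for Rcor1 (0.833) and 0.31 for Phf21a (0.0184), and with upper quartile factors Hdac2 was at -0.15 (0.112). The scaling itself set these shifts, since it moved the median of all genes to 0.19 and 0.09. By limma-voom with sample weights Hdac1 was at 0.20 (limma adjusted p = 0.831), and the cause was not tested. Leaving out each library in turn gave -1.47 to -1.39 for Kdm1a, -0.45 to -0.29 for Kdm1b, -0.52 to -0.37 for Hmg20b, -0.30 to -0.17 for Hdac2, -0.63 to 0.0866 for Hdac1 (above 0 without KO 512, control 517 or control 518), -0.25 to -0.09 for Rcor1, 0.39 to 0.88 for Rcor2, -0.0105 to 0.22 for Rcor3 (below 0 without control 518) and 0.07 to 0.15 for Phf21a. The same gave log2 differences of 0.99 to 1.10 for Kdm1b to Kdm1a, 0.57 to 1.09 for Rcor2 to Rcor1, 0.18 to 0.42 for Rcor3 to Rcor1, -0.61 to 0.47 for Hdac2 to Hdac1 and 1.15 to 1.34 for Rcor1 to Kdm1a, in designs that cannot reach the threshold. Rcor2 to Rcor1, at 0.91, did not pass when adjusted over the 3 ratios without Kdm1a (exact permutation adjusted p = 0.0857), also chosen after seeing the data. Without control 511 and KO 512 together, chosen after seeing the data as was the muscle covariate, Kdm1b to Kdm1a was at 1.02, Rcor2 to Rcor1 at 1.16 and Rcor1 to Kdm1a at 1.39. The number of genes called was 3427 to 4783 with a library left out and 4545 to 5375 under the other scalings, filters, row sums and tools, and 4214 without control 511 and KO 512 and 3294 with the muscle covariate. No paired analysis was possible because the groups share no replicate numbers.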
